A study of Mus musculus with 6 samples.

Results

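The genes described here are 9 interferon-stimulated genes, Ifit1, Ifit2, Ifit3, Isg15, Usp18, Oasl2, Rsad2, Irf7 and Stat2, which were chosen by name as members of the type I interferon response. They are 9 of the 23284 genes listed in the count files, and all 9 passed the filter on low counts that left 12559 genes for testing. RNA-seq was done on livers of C57BL/6 mice that were 8 weeks old and had been fasted overnight. The mice then received vehicle (n = 3) or FGF19 at 1 mg/kg (n = 3), and livers were taken 6 h later while fasting continued. FGF19 is a human intestinal hormone, the counterpart of mouse FGF15, that is secreted after a meal and acts on hepatocytes. The study made the comparison to ask how FGF19 bears on the repression of lipogenic genes, measured over all hepatic genes, and all mice of both groups were of the same strain, age and feeding state.

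Type I interferons are secreted proteins that bind a receptor made of IFNAR1 and IFNAR2, which activates the kinases JAK1 and TYK2. These lead to the assembly of the factor ISGF3, which holds STAT2 and IRF9 among its subunits and binds interferon-stimulated response elements (ISREs) upstream of its target genes. Type II interferon acts through a receptor of its own, and the target genes of the 2 kinds of interferon overlap. In liver, hepatocytes, Kupffer cells and endothelial cells all respond to interferon, and the products of the target genes restrict viruses.

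Depth was similar across the 6 libraries, with between 18994654 and 22920056 counted reads per mouse, and levels are given as CPM, the share of a library's reads scaled to a fixed library size, after TMM scaling. Hepatocyte marker genes summed to between 100153 and 104320 CPM in vehicle livers and to between 91666 and 103533 CPM in FGF19 livers, so that the defining transcripts of the labelled tissue were abundant in all 6 livers. FGF19 was set against vehicle by the quasi-likelihood test of edgeR, and a gene is called when its p, adjusted by the Benjamini-Hochberg method over all 12559 genes, is under 0.05.

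The regions upstream of the genes are shown first because ISGF3 acts there. RefSeq start sites gave a window of 250 bases for 8 of the 9 genes, and each window was placed by an exact, single match in the mm9 genome. The windows were searched on both strands for the ISRE core TTTCNNTTTC, which reads GAAANNGAAA on the other strand. The core was present upstream of Isg15, Ifit1, Ifit3, Rsad2 and Stat2 and absent from the windows of Irf7, Oasl2 and Ifit2, and it was present in 2.98% of the 32851 mouse windows of this length. The windows of the 5 genes with a match and of Irf7, the factor among those without one, run 5′ to 3′ on the strand of the gene, with the letters of the core in capitals. They lie at chr4:155574928-155575177 (minus strand) for Isg15, chr19:34715129-34715378 (plus strand) for Ifit1, chr19:34657769-34658018 (plus strand) for Ifit3, chr12:27141318-27141567 (minus strand) for Rsad2, chr10:127707304-127707553 (plus strand) for Stat2 and chr7:148452324-148452573 (minus strand) for Irf7.
Isg15: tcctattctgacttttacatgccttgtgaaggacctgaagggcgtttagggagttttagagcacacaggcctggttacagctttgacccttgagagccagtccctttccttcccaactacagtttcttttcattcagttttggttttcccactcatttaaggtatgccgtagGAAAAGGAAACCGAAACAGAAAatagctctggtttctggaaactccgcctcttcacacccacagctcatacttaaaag
Ifit1: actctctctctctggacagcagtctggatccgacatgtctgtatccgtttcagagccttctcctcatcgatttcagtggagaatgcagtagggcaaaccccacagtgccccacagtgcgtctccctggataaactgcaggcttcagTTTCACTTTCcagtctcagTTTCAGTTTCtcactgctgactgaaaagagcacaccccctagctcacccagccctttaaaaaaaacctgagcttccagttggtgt
Ifit3: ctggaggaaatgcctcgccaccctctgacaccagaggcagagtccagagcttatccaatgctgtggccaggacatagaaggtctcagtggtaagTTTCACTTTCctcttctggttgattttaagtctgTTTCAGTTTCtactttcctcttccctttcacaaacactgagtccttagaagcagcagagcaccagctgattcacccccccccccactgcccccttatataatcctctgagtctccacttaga
Rsad2: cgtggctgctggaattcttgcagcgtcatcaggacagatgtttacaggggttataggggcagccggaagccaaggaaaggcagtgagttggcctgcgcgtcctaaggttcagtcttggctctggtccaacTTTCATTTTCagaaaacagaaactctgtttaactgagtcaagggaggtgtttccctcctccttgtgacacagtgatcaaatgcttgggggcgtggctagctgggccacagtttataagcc
Stat2: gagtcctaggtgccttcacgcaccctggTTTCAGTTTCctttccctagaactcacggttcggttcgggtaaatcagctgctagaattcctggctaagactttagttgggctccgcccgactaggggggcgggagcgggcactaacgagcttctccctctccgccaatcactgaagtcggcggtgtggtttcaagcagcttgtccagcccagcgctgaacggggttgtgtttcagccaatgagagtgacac
Irf7: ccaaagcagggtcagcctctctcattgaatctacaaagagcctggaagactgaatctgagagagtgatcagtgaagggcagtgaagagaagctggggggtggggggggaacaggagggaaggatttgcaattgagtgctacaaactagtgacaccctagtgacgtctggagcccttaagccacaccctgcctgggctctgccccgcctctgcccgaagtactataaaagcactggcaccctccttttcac

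Isg15 had 3 overlapping matches on the other strand, which together span 78 to 57 bases before the start. Ifit1 had 2 matches, at 104 to 95 and at 85 to 76 bases before the start, and Ifit3 had 2, at 156 to 147 and at 122 to 113 bases. Rsad2 had 1 match at 120 to 111 bases, and Stat2 had 1 at 222 to 213 bases. These distances are counted from the RefSeq start, which for Stat2 lies upstream of the gene start in the annotation of the files. The shorter element TTCNNNGAA, an element of the type II interferon response that reads the same on both strands, was present upstream of Ifit2 alone among these genes and in 7.02% of all windows. A match to these letters is a description of the sequence and does not show that a factor was bound.

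**Figure D1:**
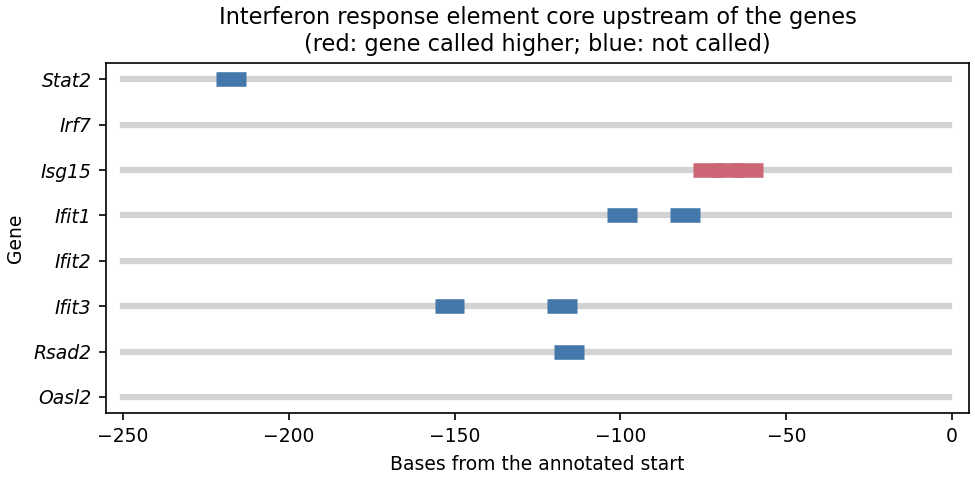
Position of the ISRE core in the window upstream of 8 genes, in bases from the annotated start (x axis), with 1 grey line for each gene and the first window shown for Ifit2. Coloured blocks are matches on either strand, red for a gene called higher after FGF19 and blue for a gene not called, and the matches of Isg15 lie at 78 to 57 bases before the start.

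After FGF19, 4 of the 9 genes were higher, namely Isg15, Irf7, Oasl2 and Ifit2, and none was lower. Among all genes tested, 4.56% were called higher and 2.84% lower. Isg15 rose 5.05-fold, and the other rises were between 1.70-fold and 1.98-fold. The remaining genes, Ifit3, Ifit1, Rsad2, Usp18 and Stat2, had log2 fold changes of 0.73, 0.60, 0.27, −0.08 and −0.04 and were not called. Over the 9 genes the median log2 fold change was 0.73, against −0.00076 over all genes tested. At an unadjusted p under 0.01 the count of higher genes was also 4, where 6.20% of all genes were higher. In the same 4 genes every FGF19 liver was above every vehicle liver, a separation that 14.5% of all genes showed. The count of 0 lower genes was also found at an unadjusted p under 0.05, at which 11.3% of all genes were lower, and DESeq2, the likelihood ratio test, the exact test and limma-voom gave 0 as well. In a list of 9 genes these shares of all genes would also give few or none. In whole liver a change in the number of cells of a type and a change in RNA per cell cannot be told apart.

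**Figure D2:**
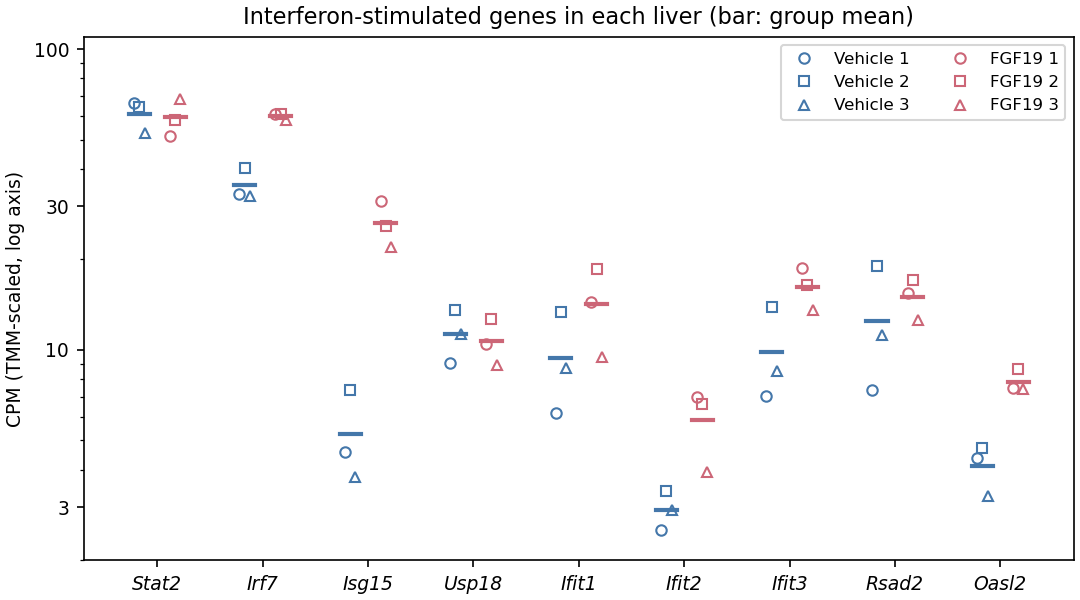
CPM of the 9 genes (log axis) in each of the 6 livers, with 1 symbol for each replicate and a bar at the group mean. The groups are separated for Irf7, Isg15, Ifit2 and Oasl2 and overlap for Stat2, Usp18, Ifit1, Ifit3 and Rsad2.

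The first genes in the order of the pathway are the transcription factors, and gene positions are those of the mm9 annotation in the files, in which none of the 9 shares exon positions with another gene. Stat2, the ISGF3 subunit specific to type I and type III interferon (chr10:127707632-127729905), was at 66.4, 64.1 and 52.5 CPM in the vehicle livers and at 51.5, 58.3 and 68.3 CPM in the FGF19 livers. The groups overlapped over nearly their full range, and Stat2 had a log2 fold change of −0.04 (SE 0.127, 95% interval −0.33 to 0.25, adjusted p = 0.887). Irf7, the factor that raises interferon-alpha transcription and is itself an ISGF3 target (chr7:148449082-148452323), was at 33.1, 40.3 and 32.5 CPM in vehicle livers and at 60.8, 60.7 and 58.3 CPM after FGF19. All 3 FGF19 livers lay above all 3 vehicle livers and close to each other, and the rise was 1.70-fold (log2 0.76, SE 0.102, 95% interval 0.54 to 0.99, adjusted p = 0.00254). The reads on Irf7 per read on Stat2 were 0.499, 0.628 and 0.619 in vehicle livers and 1.18, 1.04 and 0.854 in FGF19 livers. This ratio does not depend on library scaling, and its groups did not overlap (two-sided exact permutation p = 0.1, the smallest that 3 against 3 allows). It is 1 of 3 ratios given here, which were chosen after the values were seen and have adjusted p between 0.15 and 0.2 over the 3.

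Isg15 encodes a ubiquitin-like protein that is attached to other proteins and can also be secreted, and Usp18 encodes the protease that removes it and that also blocks signalling at IFNAR2. Isg15 (chr4:155573533-155574927) was at 4.57, 7.36 and 3.77 CPM in vehicle livers and at 31.3, 25.8 and 22.0 CPM in FGF19 livers. The lowest FGF19 liver was well above the highest vehicle liver, and the rise of 5.05-fold (95% interval 3.53 to 7.23, log2 2.34, SE 0.231, adjusted p = 0.000507) was the largest of the 9. Usp18 (chr6:121195924-121220935) was at 9.05, 13.6 and 11.3 CPM in vehicle livers and at 10.5, 12.7 and 8.91 CPM in FGF19 livers, with groups that overlapped. Its log2 fold change was −0.08 (SE 0.180, 95% interval −0.48 to 0.32, adjusted p = 0.838). The reads on Isg15 per read on Usp18 were 0.461 ± 0.112 (SD, n = 3) in vehicle livers and 2.50 ± 0.482 (SD, n = 3) in FGF19 livers (two-sided exact permutation p = 0.1).

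The 3 Ifit genes lie between positions 34625184 and 34724499 of chromosome 19 and encode proteins with tetratricopeptide repeats that bind viral RNA or hold back its translation. Ifit2 (chr19:34625184-34651024) was at 2.52, 3.39 and 2.93 CPM in vehicle livers and at 6.97, 6.61 and 3.94 CPM in FGF19 livers. The groups did not overlap, although the FGF19 replicate 3 was near the vehicle livers, and Ifit2 rose 1.98-fold (log2 0.99, SE 0.239, adjusted p = 0.0378). That call was lost when any 1 library other than FGF19 replicate 3 was left out, with adjusted p from 0.0604 to 0.137. Ifit3 (chr19:34658019-34663472) was at 7.05, 13.9 and 8.53 CPM in vehicle livers and at 18.7, 16.4 and 13.5 CPM in FGF19 livers. Only vehicle replicate 2 reached into the FGF19 range, and the log2 fold change of 0.73 (SE 0.233, 95% interval 0.20 to 1.25, adjusted p = 0.0964) passed the threshold when that library was left out (adjusted p = 0.0141). With any other library left out Ifit3 was not called, with log2 fold changes down to 0.53 and adjusted p up to 0.285. Ifit1 (chr19:34715379-34724499) was at 6.19, 13.3 and 8.68 CPM in vehicle livers and at 14.5, 18.6 and 9.50 CPM in FGF19 livers. Its groups overlapped, and the log2 fold change of 0.60 (SE 0.294, 95% interval −0.06 to 1.26) was not called (adjusted p = 0.266). It was 0.36 without FGF19 replicate 2, 0.37 without vehicle replicate 1 and 0.93 without vehicle replicate 2. Reads that aligned to several places were left out of the counts, and 31.7% of the stretches of 100 bases in Ifit3 transcripts are also in Ifit3b, so the level of Ifit3 is uncertain. Ifit3b itself was at 2.27 ± 0.785 CPM in vehicle and 4.40 ± 0.827 CPM in FGF19 livers (SD, n = 3, log2 fold change 0.96, adjusted p = 0.0645), and in Ifit1 the shared stretches were 3.29%.

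Rsad2 and Oasl2 encode antiviral proteins, viperin, which makes a nucleotide that ends viral RNA synthesis, and a 2′-5′ oligoadenylate synthetase-like protein. Rsad2 (chr12:27127608-27141317) was at 7.38, 19.0 and 11.2 CPM in vehicle livers and at 15.4, 17.1 and 12.5 CPM in FGF19 livers. The vehicle livers spanned the whole FGF19 range, and the log2 fold change of 0.27 (SE 0.284, 95% interval −0.37 to 0.90) was not called (adjusted p = 0.636). Oasl2 (chr5:115346943-115362254) was at 4.38, 4.71 and 3.27 CPM in vehicle livers and at 7.49, 8.63 and 7.42 CPM in FGF19 livers. The groups were separated, with a 1.90-fold rise (log2 0.93, SE 0.170, 95% interval 0.55 to 1.31, adjusted p = 0.0122). Without vehicle replicate 3 the adjusted p of Oasl2 was 0.0543, and without FGF19 replicate 2 it was 0.0536. Leaving out either of these libraries lowered the count of higher genes among the 9 from 4 to 2, and the count over all genes from 573 to 236 and to 276. The reads on Ifit2 per read on Rsad2 were 0.342, 0.179 and 0.261 in vehicle livers and 0.452, 0.387 and 0.314 in FGF19 livers, with groups that overlapped (two-sided exact permutation p = 0.2).

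The order of the genes was read from RPKM, the CPM of a gene divided by its exon length in kilobases, which allows levels of different genes to be compared. In vehicle livers Irf7 was highest at 19.0 ± 2.31 RPKM (SD, n = 3), followed by Stat2 at 13.9 ± 1.69 RPKM and Isg15 at 6.92 ± 2.49 RPKM. Usp18, Ifit3, Ifit1 and Rsad2 followed at means between 6.38 and 3.31 RPKM, and from Isg15 to Rsad2 the ranges of neighbours overlapped. Oasl2 (1.31 ± 0.240 RPKM) and Ifit2 (0.746 ± 0.110 RPKM) were lowest in vehicle livers, each below its neighbour in every liver. In FGF19 livers Isg15 had moved to the top at 34.9 ± 6.19 RPKM, beside Irf7 at 32.2 ± 0.752 RPKM, with ranges that overlapped. Stat2 stood apart at 13.5 ± 1.92 RPKM. Ifit3 (8.13 ± 1.31 RPKM), Usp18, Ifit1 and Rsad2 (3.97 ± 0.609 RPKM) again overlapped from neighbour to neighbour, and Oasl2 (2.50 ± 0.218 RPKM) and Ifit2 (1.48 ± 0.420 RPKM) were again the lowest.

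Within each group the genes deviated together in single livers. Vehicle replicate 2 was the highest vehicle liver for 8 of the 9 genes, all but Stat2, whereas it was highest for 35.3% of all genes tested. FGF19 replicate 3 was the lowest FGF19 liver for 8 of the 9 genes, where it was lowest for 39.3% of all genes, and for Stat2 it was the highest. The median log2 deviation from the group mean was 0.28 in vehicle replicate 2 and −0.25 in FGF19 replicate 3, and between −0.21 and 0.14 in the other livers. The spread among vehicle livers was widest for Rsad2, Ifit1, Ifit3 and Isg15, whose highest liver was 2.57, 2.16, 1.98 and 1.95 times the lowest. Irf7 had the smallest spread of the 9 in both groups, 1.24 times in vehicle livers and 1.04 times in FGF19 livers.

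**Figure D3:**
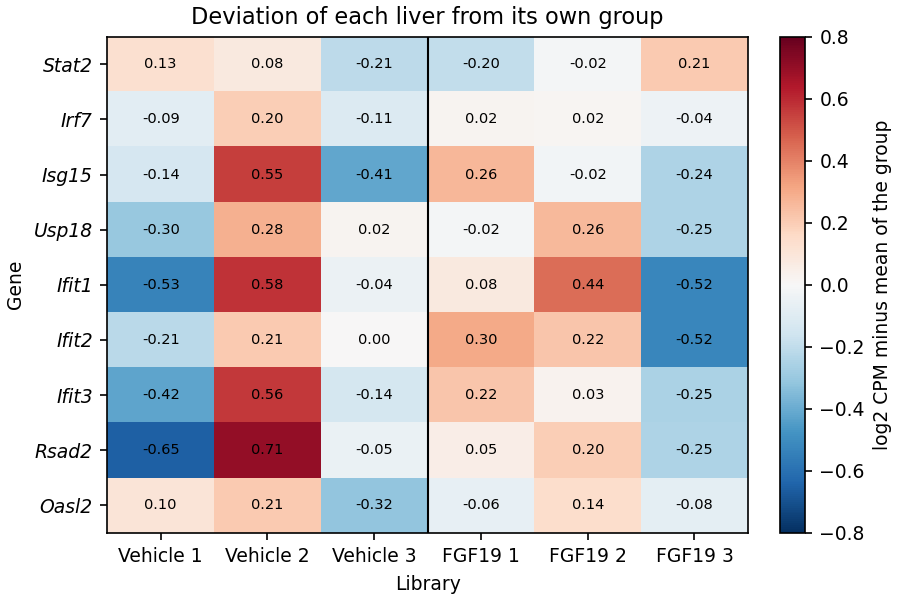
Difference of log2 CPM in each liver from the mean of its own group, for 9 genes (y axis) and 6 livers (x axis), with red above and blue below the mean. Vehicle replicate 2 is red in all 9 genes and FGF19 replicate 3 is blue in 8.

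The rest of the interferon pathway was read from a list of 86 genes without the 9, of which 84 were in the files and 73 were tested. The list was chosen with earlier results of these data known, so its counts are a description and not a test. In this list 15 genes were higher and 0 lower, where 4.56% and 2.84% of all genes were, and the median log2 fold change was 0.24. At an unadjusted p under 0.05, 26 were higher and 2 lower, where 11.6% of all genes were higher and 11.3% lower. DESeq2, the likelihood ratio test, the exact test and limma-voom also called 0 lower. The count of 15 higher genes fell to 7 when vehicle replicate 3 was left out and to 9 when FGF19 replicate 2 was, and it was 23 in the fit that lacked FGF19 replicate 3. The count of higher genes over all genes moved in the same direction, from 573 to 236, 276 and 1016.

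Upstream of the 9 genes, 5 genes of the receptor, its kinases and ISGF3 are given. Ifnar1 (log2 0.08, adjusted p = 0.676), Ifnar2 (log2 −0.10, adjusted p = 0.637), Jak1 (log2 −0.01, adjusted p = 0.963), Tyk2 (log2 0.25, adjusted p = 0.250) and Irf9 (log2 0.13, adjusted p = 0.470) were not called. Few reads were counted on the interferons themselves. Of 9 interferon genes in the files, 7 had a count of 0 in all 6 libraries, Ifnk had 1 and 2 reads in single livers, and Ifng had 2 reads in 1 FGF19 liver. A count of 0 allows up to 3 reads, or between 0.136 and 0.159 CPM, for counting error only. This limit does not hold for near-identical genes such as Ifna1, Ifna2, Ifna4 and Ifna5, since reads that align to several genes were left out, and the globin genes Hba-a1, Hba-a2 and Hbb-b1 were likewise listed at 0 in all 6 livers. The other interferon receptors (0 of 3 tested), the interferon regulatory factors (0 of 5) and the feedback inhibitors (0 of 5) had no call, and in lists this short the shares of all genes, 4.56% higher and 2.84% lower, would also give few or none.

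Of 4 enzymes that attach ISG15 to proteins, 3 were higher after FGF19, where 4.56% of all genes were called higher. Uba7, the activating enzyme, was at 5.05, 8.10 and 6.80 CPM in vehicle and 13.5, 13.7 and 12.9 CPM in FGF19 livers (log2 1.01, adjusted p = 0.00771). Ube2l6, the conjugating enzyme, was at 40.1, 44.9 and 39.1 CPM in vehicle and 82.1, 70.9 and 62.8 CPM in FGF19 livers (log2 0.80, adjusted p = 0.00350). Herc6, the main ISG15 ligase of mice, was at 8.53, 9.69 and 9.97 CPM in vehicle and 43.0, 38.5 and 20.3 CPM in FGF19 livers (log2 1.85, adjusted p = 0.00258). Each of these 3 genes was higher in every FGF19 liver than in any vehicle liver, as were 14.5% of all genes tested. Trim25, which is also a ligase for ISG15, had a log2 fold change of −0.23 and was not called (adjusted p = 0.179). Every FGF19 liver was below the vehicle livers for Trim25, as for 1738 of the 12559 genes tested.

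**Figure D4:**
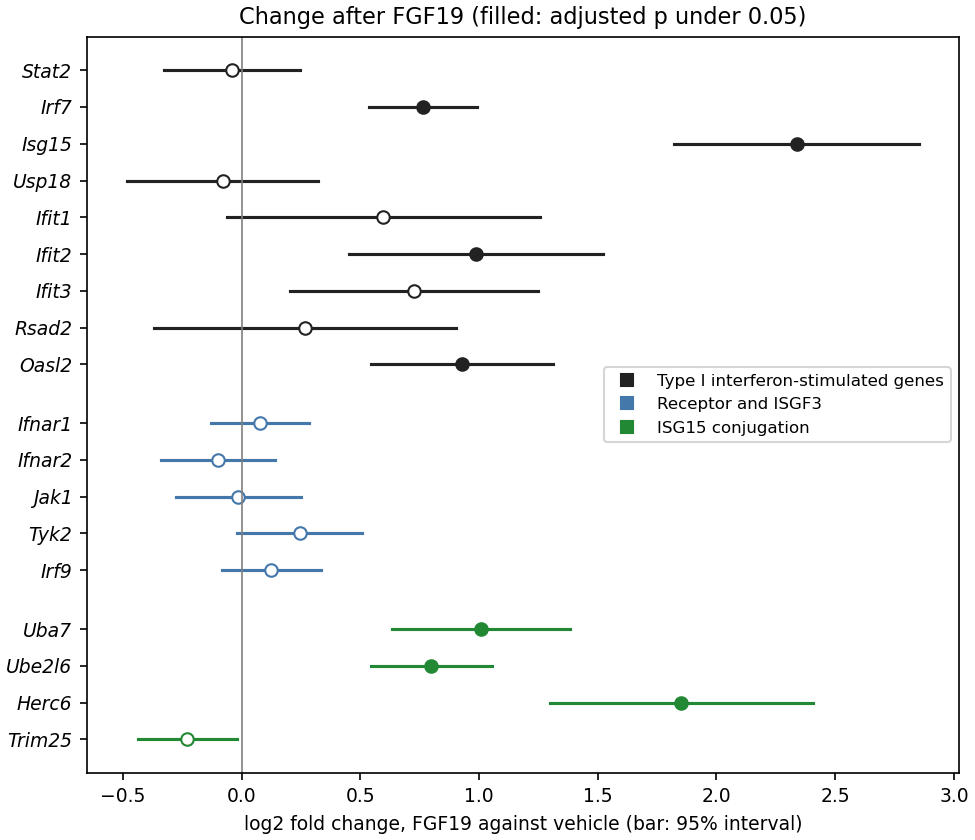
The log2 fold change of FGF19 against vehicle (x axis) with its 95% interval (bar) for the 9 genes, 5 receptor and ISGF3 genes and the ISG15 conjugation genes. Filled circles have an adjusted p under 0.05, and the intervals of Stat2 and Usp18 span 0 while that of Isg15 runs from 1.82 to 2.85.

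Among antiviral effectors 6 of 19 tested were higher, and the counts of the lists here stand beside 4.56% of all genes called higher. Ifitm2 and Ifitm3, which restrict entry of viruses, went from 140 ± 3.38 to 270 ± 18.5 CPM and from 133 ± 21.6 to 243 ± 21.8 CPM (SD, n = 3, log2 0.94 and 0.87, adjusted p = 0.000327 and 0.00350). Oas1a, an oligoadenylate synthetase (log2 0.98, adjusted p = 0.0207), Ddx60 (log2 0.95, adjusted p = 0.0482) and Ifitm1 (log2 0.75, adjusted p = 0.0462) were also called. Ddx60 and Ifitm1 lost the call when any library other than FGF19 replicate 3 was left out (adjusted p up to 0.168 and 0.173), and Oas1a did so for vehicle replicates 1 and 3 and FGF19 replicates 1 and 2 (adjusted p up to 0.0743). Of the nucleic acid sensors and adaptors, 1 of 12 was higher, a share near that of all genes. This was Zbp1, a sensor of Z-form nucleic acids, which went from 5.16 ± 0.927 to 23.1 ± 4.56 CPM (SD, n = 3, log2 2.17, adjusted p = 0.000228). Of 20 other interferon-stimulated genes 5 were higher. These were Ifi47 (log2 1.73, adjusted p = 0.00290), whose exons share positions with Olfr56, Ifi44 (log2 1.41, adjusted p = 0.0152), Xaf1 (log2 1.08, adjusted p = 0.0122), Lgals3bp (log2 0.55, adjusted p = 0.00904) and Ifi35 (log2 0.54, adjusted p = 0.0130). Without vehicle replicate 3 the last 4 had adjusted p of 0.0743, 0.0657, 0.0551 and 0.0710. Ifi44 also lost the call when vehicle replicate 1 or FGF19 replicate 1 or 2 was left out (adjusted p up to 0.0602), and Ifi35 did so for FGF19 replicate 2 (adjusted p = 0.0501).

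The GBP and IRG GTPases and the genes of antigen presentation are given for their values only, and no test compared them with the 9 genes. Of the GBP and IRG GTPases, which attack the vacuoles of intracellular microbes, 10 of 16 tested were higher, where 4.56% of all genes were, with a median log2 fold change of 1.71. Among genes of antigen presentation by MHC class I and of the immunoproteasome, 8 of 15 were higher, with a median of 0.43.

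**Figure D5:**
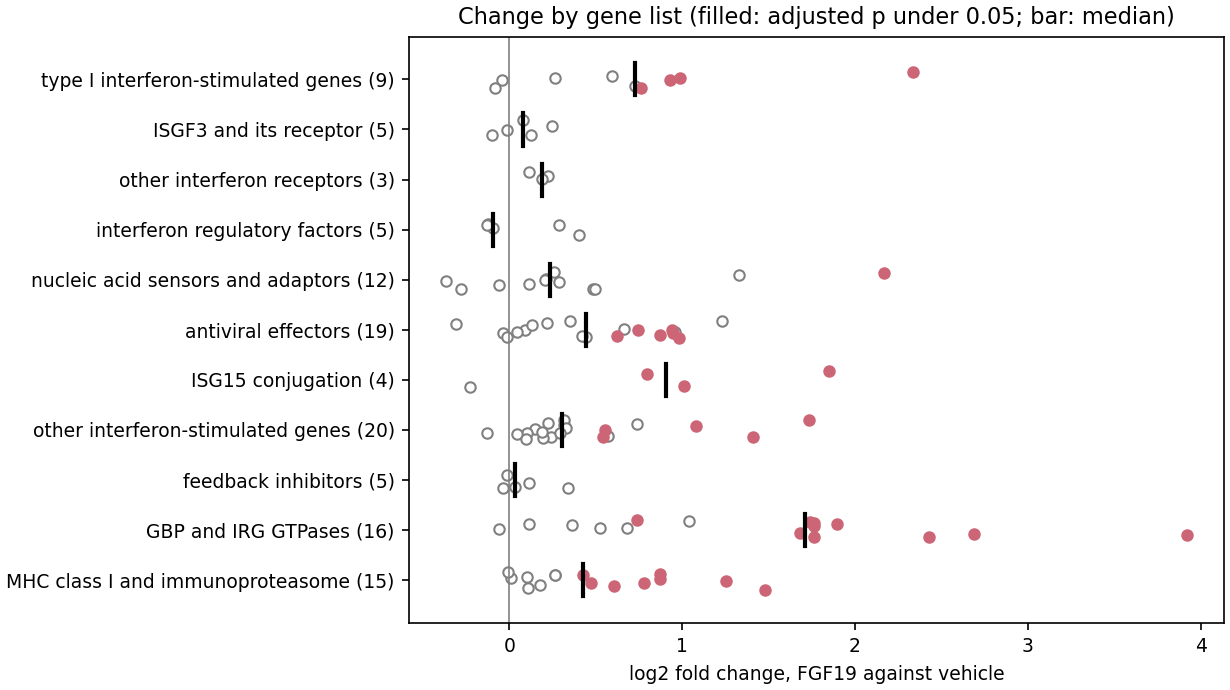
The log2 fold change of FGF19 against vehicle (x axis) for each tested gene of the 9 and of the other lists, with the number of genes tested in brackets, filled circles for an adjusted p under 0.05 and a black bar at the median. The median of the 9 genes is 0.73, that of the GBP and IRG GTPases is 1.71, and the feedback inhibitors and interferon regulatory factors have no filled circle.

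Markers of cells that could carry interferon-stimulated transcripts were summed in each liver, and their calls stand beside 4.56% of all genes higher and 2.84% lower. Kupffer cell and macrophage markers summed to between 231 and 281 CPM in vehicle and between 228 and 276 CPM in FGF19 livers, and 2 of 9 were higher, Marco (log2 2.29, adjusted p = 0.00105) and Cd68 (log2 0.66, adjusted p = 0.00932). Of the other 7, which were not called, Vsig4 (log2 −0.54, adjusted p = 0.0755) was below the vehicle range in every FGF19 liver and Emr1 (log2 0.36, adjusted p = 0.155) above it, Clec4f had −0.29 and Cd5l −0.22, and the median over the 9 markers was 0.035. Neutrophil markers summed to between 0.572 and 2.13 CPM in vehicle and between 3.67 and 5.24 CPM in FGF19 livers, and monocyte markers to between 1.22 and 1.39 CPM and between 1.99 and 4.64 CPM, so that both sums were higher in every FGF19 liver. In FGF19 replicate 3, S100a9 alone was at 2.76 CPM and Ccr2 alone at 1.45 CPM. The groups overlapped for the neutrophil markers S100a8, Mpo, Cxcr2 and Ngp and for the monocyte markers Ly6c2 and Chi3l3. S100a9 was the 1 gene called of 2 tested neutrophil markers (log2 2.16, adjusted p = 0.0292), and the 1 monocyte marker tested, Ccr2, was not called (log2 1.03, adjusted p = 0.0537) and was higher in every FGF19 liver. Markers of plasmacytoid dendritic cells summed to between 0.893 and 1.69 CPM in vehicle and between 1.61 and 1.95 CPM in FGF19 livers, and those of T and NK cells to between 2.43 and 4.87 CPM and between 4.07 and 4.46 CPM. B cell markers summed to between 3.43 and 6.30 CPM and between 1.67 and 3.86 CPM in the same order, and of the tested markers of these last 3 kinds of cells (2, 3 and 4) none was called. Markers of sinusoidal endothelium summed to between 158 and 163 CPM in vehicle and between 143 and 150.1 CPM in FGF19 livers, lower in every FGF19 liver, and none of the 4 was called. Stellate cell markers summed to between 206 and 280 CPM in vehicle and between 187 and 232 CPM in FGF19 livers, and 1 of 4, Colec11, was lower (log2 −0.75, adjusted p = 0.00878). The part of any of these cells in the rise of Isg15, Irf7, Oasl2 and Ifit2 was not tested.

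The genes whose levels over the 6 libraries were most like the median profile of the 9 were Tlr2, Ppip5k1, Pars2, Lor and Itgb7, with root mean square differences in log2 CPM, after centring each gene, between 0.0678 and 0.0917. Among the 9 genes the same measure ran from 0.101 for Ifit3 to 0.869 for Isg15.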

How the data were processed

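RNA-seq of 3 vehicle and 3 FGF19 livers was used. Values are raw read counts on exons, as deposited, which the authors made by trimming with Trimmomatic 0.36, aligning to mm9 with STAR 2.5.3a and counting with featureCounts 1.5.2, as the labels and file headers give them. Counting ignored strand, took mates separately and dropped multi-mapping reads. The methods describe 3 mice per group, and groups and replicate numbers came from the labels. Here genes were filtered with filterByExpr, scaled by TMM and compared with edgeR 4.0.16 in R 4.3.3 by the quasi-likelihood test without covariates, with two-sided p-values adjusted over 12559 genes. The fits were tested on simulated data. Alternatives were DESeq2 1.42.0, limma-voom (limma 3.58.1), other edgeR tests, no TMM scaling, other filters and thresholds, a replicate block and each library left out. All 9 genes are described, and other pathway genes were named if they belong to the receptor or ISGF3, or were among the 5 largest called changes of their list. Trim25, Ifit3b, the detected ligands, the single markers named and the ratios fall outside this rule and were chosen after their values were seen. The genes and lists were chosen with earlier results of these data known. The values of 1 pathway gene are not reported here, and it is left out of the pathway counts. The authors' table of their own fold changes and p-values was not used.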

Additional observations from a re-analysis of the deposited data

How the results depend on the processing

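Over 14 alternatives for each of the 9 genes, 107 of 126 fits kept the direction and the side of the threshold. Isg15 and Irf7 were called in all 14. The count of higher genes was between 2 and 4 when 1 library was left out, 2 at an adjusted p under 0.01, 5 with DESeq2, the likelihood ratio test or the exact test, and 3 with limma-voom or without TMM scaling. The count of lower genes was 0 in each. Among the pathway list it was between 7 and 23 higher genes with 1 library left out and 8 at an adjusted p under 0.01. Ifit2 lost its call without TMM scaling (adjusted p = 0.0515) and with limma-voom (adjusted p = 0.0643), and Ifit3 gained one with DESeq2 (adjusted p = 0.0267), the likelihood ratio test (0.0343) and the exact test (0.0361). With 1 library left out the log2 fold change ran from −0.22 to 0.069 for Usp18, from −0.0047 to 0.69 for Rsad2, from −0.15 to 0.053 for Stat2 and from −0.11 to 0.11 for Jak1, and the cause of these changes of sign was not tested. Same-numbered livers deviated from their group means with correlations of −0.05, −0.23 and −0.21 across genes. Differently numbered livers had correlations from −0.14 to 0.26. Deviations in a group of 3 sum to 0, so these values cannot show whether the livers were paired. A fit with the replicate block called 3 of the 9 genes and 12 of the pathway list, and Ifit2 and Oas1a then had an adjusted p of 0.0583 each. Ddx60 and Ifitm1 lost their calls without TMM scaling (adjusted p = 0.0652 and 0.0560), with limma-voom (0.0833 and 0.0550) and with that block (0.0708 and 0.0586). Ifit2 and Oasl2 rest on between 53 and 188 reads per library.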
